A study of Mus musculus with 11 samples.

Results

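The SEC61 translocon and the translocon-associated protein (TRAP) complex were described through their 10 genes: *Sec61a1*, *Sec61a2*, *Sec61b* and *Sec61g* of the SEC61 channel, the associated factors *Sec62* and *Sec63*, and *Ssr1*, *Ssr2*, *Ssr3* and *Ssr4* of TRAP. They were chosen by name, and all 10 were found among the 18667 genes in the tables and passed the filter on low values. RNA-Seq was done on whole cochleae of mice aged 2 months, 5 *Atf6*+/+ (WT) and 6 *Atf6*-/- (ATF6KO), with 1 library per cochlea. The mutants carry a premature stop codon in *Atf6* and make no ATF6 protein, both groups are on the C57BL/6J background, and the controls are littermates. The sources used here do not tie each cochlea to an animal, so the p-values measure the spread between these cochleae.

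The SEC61 channel is the gate through which most secreted and membrane proteins enter the endoplasmic reticulum (ER). The ribosome docks on it, and the growing chain threads through the α subunit, which the small β and γ subunits accompany. SEC62 and SEC63 help weak or late-arriving substrates through the channel, SEC63 by recruiting the chaperone BiP, and TRAP sits beside the channel and helps signal sequences that open it poorly. ATF6 is an ER membrane sensor whose cleaved fragment enters the nucleus during ER stress and induces chaperone and protein-processing genes, and loss of ATF6 in mice is the setting of this hearing study.

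Values are FPKM, fragment numbers scaled to transcript length and to the mapped fragments of the library, so levels can be compared between genes. Read counts were not used here, and the study gives a single nominal depth for all samples, so the depth reached in each library is unknown and counting error cannot be stated. FPKM summed to between 474616 and 537926 in the *Atf6*+/+ and to between 462005 and 502419 in the *Atf6*-/- libraries. Differences are log2 fold changes of *Atf6*-/- over *Atf6*+/+ on the log2(FPKM + 0.1) scale from limma, fitted to the 16169 genes that averaged 0.1 FPKM or more. A gene was called at an unadjusted limma p of at most 0.05 and a log2 fold change beyond 0.05 in size. These cut-offs were adapted from the study, which applied its own to a count-based test, so the calls here need not be the same. The targeted gene, *Atf6*, was listed at 8.25 to 10.56 FPKM in *Atf6*+/+ and at 3.83 to 4.59 FPKM in *Atf6*-/- cochleae, with no overlap. The cochlear genes *Coch* and *Otos* were present in every library, at 2024 to 3731 FPKM and 984 to 2023 FPKM. *Tecta* and the outer hair cell gene *Slc26a5* varied far more between libraries, at 0.38 to 9.52 FPKM and 0.24 to 4.11 FPKM.

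The subunits differ in how far their reads can be told from those of other genes. In the GENCODE M21 transcripts of GRCm38, a reference older than the GRCm39 assembly the authors aligned to, each member's reference transcript was cut into every 100-base window, the length of 1 read. For 8 of the 10 members no window was found in a transcript of another gene. *Sec61b* shared 45 of 465 windows (9.68%) with *Gm10320*, and *Sec61g* shared 274 of 680 (40.3%) with *Gm10177* and *Gm11575*. Levels of these small subunits are therefore uncertain, since reads from such windows could have been split between copies. *Gm10320* was listed at 0 FPKM in all 5 *Atf6*+/+ libraries and at most at 0.29 FPKM in *Atf6*-/-, whereas the partners of *Sec61g* were not in the tables. The coding sequences of both are shown because they carry the ambiguity: *Sec61b* lies at chr4:47474658-47483242 on the plus strand and *Sec61g* at chr11:16501638-16508484 on the minus strand of GRCm38. Capitals mark bases inside at least 1 shared window.
Sec61b: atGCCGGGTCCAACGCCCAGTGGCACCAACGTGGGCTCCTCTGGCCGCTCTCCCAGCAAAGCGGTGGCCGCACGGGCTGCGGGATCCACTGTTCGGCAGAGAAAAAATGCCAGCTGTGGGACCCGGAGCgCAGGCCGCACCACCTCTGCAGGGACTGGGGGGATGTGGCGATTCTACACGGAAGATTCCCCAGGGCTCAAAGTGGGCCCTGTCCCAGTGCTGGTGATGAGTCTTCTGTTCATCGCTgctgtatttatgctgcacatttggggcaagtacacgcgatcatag
Sec61g: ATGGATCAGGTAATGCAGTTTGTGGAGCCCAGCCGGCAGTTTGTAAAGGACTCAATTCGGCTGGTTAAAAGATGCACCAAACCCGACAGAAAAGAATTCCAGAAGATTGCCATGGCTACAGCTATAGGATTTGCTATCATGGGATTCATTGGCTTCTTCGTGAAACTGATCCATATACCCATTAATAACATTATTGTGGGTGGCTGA
In *Sec61b*, the shared windows covered 243 of the 291 coding bases, stop codon included, and left the 3′ end of the coding sequence in lower case. All 207 coding bases of *Sec61g* lay inside shared windows. By contrast, the paralogs *Sec61a1* and *Sec61a2*, whose coding regions are both 1428 bases long without the stop codon, shared no 100-base window. Their longest common run was 26 bases, shown because it is the closest the 2 transcripts come to sharing a read:
Sec61a1 and Sec61a2: cagaacctccccaacctcatgaacct
No read-length window of either α subunit was thus found in the other.

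*Sec61a1*, the main α subunit and the protein-conducting pore itself, was the member whose level differed most clearly between genotypes. It was listed at 51.5, 50.2, 46.7, 48.3 and 51.1 FPKM in the 5 *Atf6*+/+ cochleae. In the 6 *Atf6*-/- cochleae it ranged from 53.6 to 62.0 FPKM with a median of 60.0 FPKM. Every *Atf6*-/- library was above every *Atf6*+/+ library, the lowest of them being replicate 2 (53.6 FPKM). Means were 49.6 ± 2.03 FPKM (SD, n = 5) and 59.2 ± 2.97 FPKM (SD, n = 6), 19.4% higher in *Atf6*-/-. The log2 fold change of *Sec61a1* was 0.26 (standard error 0.05, 95% interval 0.16 to 0.36), which passed the rule but not the adjustment over all genes (limma unadjusted p = 0.000116, adjusted p = 0.0851). An exact two-sided permutation test of its mean log2 value gave p = 0.00433, against a smallest possible 0.00216. Without *Atf6*-/- replicate 2, the lowest of its group, the limma adjusted p was 0.036, and over all single omissions it ran from 0.036 to 0.228. The study picked *Sec61a1* from its altered unfolded protein response genes on these same cochleae, so its direction here is not independent evidence.

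*Sec61a2* encodes the other α subunit, of the same coding length. Its *Atf6*+/+ values were 14.3, 12.04, 13.4, 11.8 and 13.0 FPKM, and its *Atf6*-/- values ran from 12.1 to 14.4 FPKM with a median of 12.9 FPKM. The groups lay on top of each other, with 3 of 6 *Atf6*-/- libraries above the control median. The log2 fold change was 0.01 (95% interval -0.12 to 0.15), an interval that excludes the 0.26 of *Sec61a1*. Within each library, the FPKM of *Sec61a1* was between 3.49 and 4.17 times that of *Sec61a2* in *Atf6*+/+ and between 4.09 and 4.87 times in *Atf6*-/-. This ratio does not depend on how libraries are scaled. Its mean was 3.86 ± 0.30 (SD, n = 5) in controls and 4.57 ± 0.36 (SD, n = 6) in mutants, and 4 of 6 mutants lay beyond every control. On the log2 scale, *Sec61a2* over *Sec61a1* was lower by 0.243 in *Atf6*-/-, from -1.94 ± 0.11 (SD, n = 5) to -2.18 ± 0.12 (SD, n = 6) (exact two-sided permutation test, p = 0.0173). *Sec61a1* accounted for 77.7% to 80.7% of the summed α-subunit FPKM in *Atf6*+/+ and for 80.4% to 83.0% in *Atf6*-/-, and the 2 groups overlapped at their edges.

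The small subunits of the channel did not pass the rule. *Sec61b*, the tail-anchored β subunit, was at 52.7, 55.0, 60.8, 69.9 and 70.1 FPKM in *Atf6*+/+, and at 52.6 to 83.4 FPKM with a median of 69.9 FPKM in *Atf6*-/-. Its mutants included the highest and the lowest of all 11 values, replicates 3 and 5, and 3 of 6 were above every control. The log2 fold change of *Sec61b* was 0.16 (95% interval -0.09 to 0.41, limma adjusted p = 0.632). Without *Atf6*-/- replicate 5 it was 0.24, the omission that brought *Sec61b* past the rule, and without *Atf6*-/- replicate 3 or *Atf6*+/+ replicate 1 it was 0.11. *Sec61g*, the γ subunit that clamps the pore from outside, was at 26.8, 24.6, 31.3, 27.2 and 35.0 FPKM in *Atf6*+/+ and at 22.9 to 31.6 FPKM, median 27.8 FPKM, in *Atf6*-/-. No mutant was above the highest control and 2 were below the lowest, yet 4 of 6 were above the control median. The log2 fold change of *Sec61g* was -0.09 (95% interval -0.30 to 0.13, limma adjusted p = 0.776). It was -0.02 without *Atf6*+/+ replicate 5 and -0.14 without *Atf6*+/+ replicate 2.

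*Sec62* and *Sec63*, the auxiliary factors, did not pass the rule. *Sec62* was at 53.1, 52.5, 53.7, 46.2 and 55.0 FPKM in *Atf6*+/+ and at 44.9 to 54.5 FPKM, median 51.2 FPKM, in *Atf6*-/-. No mutant exceeded the highest control, and the log2 fold change was -0.04 (95% interval -0.17 to 0.09). It was -0.08 without *Atf6*+/+ replicate 4 and -0.01 without *Atf6*-/- replicate 6. *Sec63*, whose J domain calls on BiP, was at 16.0, 16.3, 16.0, 13.3 and 16.4 FPKM in *Atf6*+/+, and its *Atf6*-/- values were tightly placed between 15.9 and 17.3 FPKM with a median of 16.5 FPKM. Of the 6 mutants, 3 were above every control, and 5 were above the control median. The log2 fold change of *Sec63* was 0.09 (95% interval -0.04 to 0.21; exact two-sided permutation test, p = 0.0519). It rested in large part on *Atf6*+/+ replicate 4, the lowest value, without which it was 0.03. That library also held the lowest *Atf6*+/+ values of *Sec61a2*, *Sec62*, *Ssr1* and *Ssr3*.

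In TRAP, the β subunit *Ssr2* came closest to the rule. It was the most abundant of the 10 genes, at 105, 98.7, 112, 119.8 and 124 FPKM in *Atf6*+/+ and at 118 to 132 FPKM, median 120.5 FPKM, in *Atf6*-/-. All 6 mutants were above the control median, and 1 was above the highest control. Means were 112 ± 10.2 FPKM (SD, n = 5) and 121.9 ± 5.26 FPKM (SD, n = 6). The log2 fold change of *Ssr2* was 0.13 (95% interval -0.00086 to 0.26, limma unadjusted p = 0.0513, adjusted p = 0.505), and the exact two-sided permutation test gave p = 0.0714. It passed the rule without *Atf6*+/+ replicate 4 or replicate 5, the 2 highest controls, and over all single omissions the difference ran from 0.09 to 0.17.

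The other 3 TRAP subunits showed differences of 0.05 or less in size. *Ssr1*, the α subunit, was at 25.4, 25.5, 26.3, 23.8 and 26.3 FPKM in *Atf6*+/+ and at 24.9 to 27.2 FPKM, median 25.8 FPKM, in *Atf6*-/-, the narrowest spread of the complex (CV 3.99% and 3.26%). Its log2 fold change was 0.03 (95% interval -0.06 to 0.12), and 0.01 without *Atf6*+/+ replicate 4. *Ssr3*, the γ subunit, was at 67.8, 60.6, 64.3, 51.9 and 64.4 FPKM in *Atf6*+/+ and at 54.8 to 68.5 FPKM, median 64.7 FPKM, in *Atf6*-/-. The ranges of *Ssr3* nearly coincided, with a log2 fold change of 0.05 (95% interval -0.11 to 0.21). *Ssr4*, the δ subunit, was at 57.0, 56.0, 55.8, 61.3 and 63.7 FPKM in *Atf6*+/+ and at 49.1 to 68.4 FPKM, median 56.5 FPKM, in *Atf6*-/-. Mutants held both extremes of *Ssr4*, and its log2 fold change was -0.04 (95% interval -0.21 to 0.12). These intervals, all of which include 0, do not show that the subunits were equal between genotypes.

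**Figure D1:**
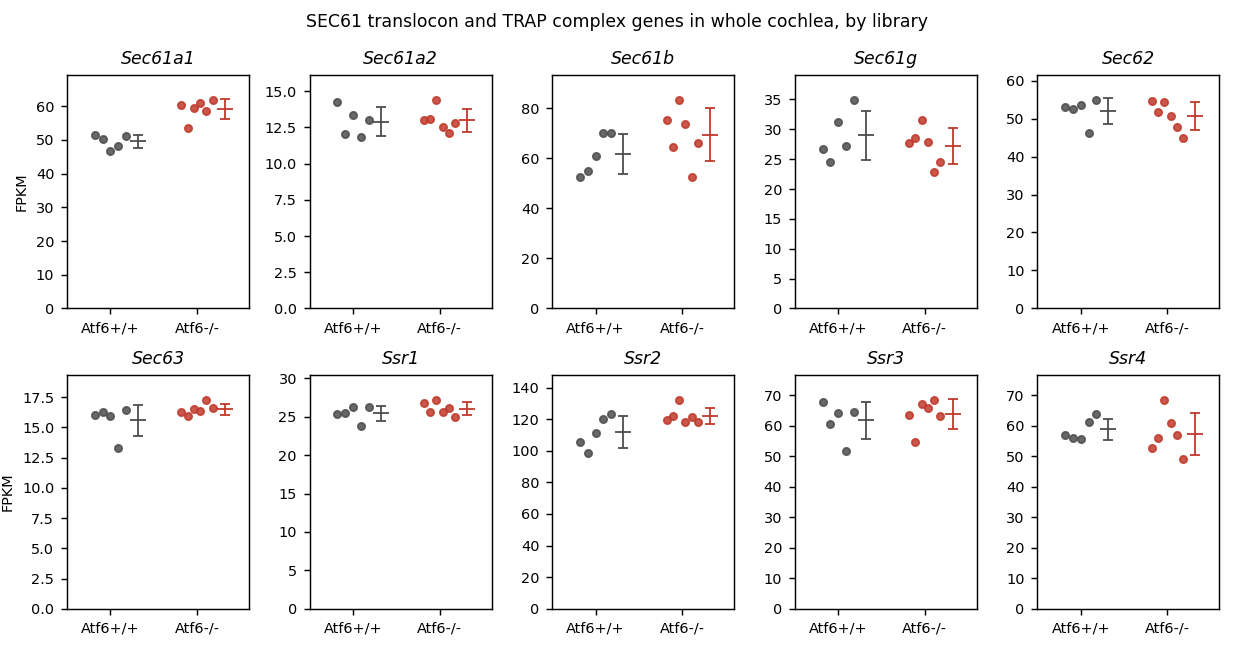
FPKM of each of the 10 genes in each library (points), with group mean and SD at the right of each column of points (5 *Atf6*+/+ in grey, 6 *Atf6*-/- in red) and the y axes starting at 0. *Sec61a1* is the panel in which the groups do not overlap, with *Atf6*+/+ at 46.7 to 51.5 FPKM and *Atf6*-/- at 53.6 to 62.0 FPKM.

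Of the 10 members, 1 was called higher (*Sec61a1*) and 0 lower, where 4.48% of all genes tested were called higher and 5.37% lower. None had a limma adjusted p under 0.05, as did 0.068% of all genes (11 genes), and 1 member was at an unadjusted limma p under 0.05. Groups did not overlap, with the mutants higher, for 1 member and for 0.643% of all genes. Log2 fold changes were above 0 for 7 members and below 0 for 3, with a median of 0.04 beside -0.01 over all genes tested. Without *Atf6*+/+ replicate 4 the members' median was -0.00166, with 5 above 0, and with a bone marrow score as a covariate it was 0.02. The scaling between libraries bears on these counts. With each library rescaled to TPM, which gives all libraries the same total, the median over all genes moved from -0.01 to 0.04, and the share of called genes that were higher moved from 45.5% to 76.0%. Under that scaling *Sec61a1*, *Sec61b* and *Ssr2* were called higher, with 8.59% of all genes, and *Sec61a1* and *Ssr2* did not overlap, with the mutants higher, as for 1.16% of all genes. TPM divides by a library's FPKM sum, of which 11 erythroid genes made up 1.02% to 8.63% in *Atf6*+/+ and 0.60% to 2.00% in *Atf6*-/-. With median-of-ratios scaling, 5.41% of all genes were called higher, *Sec61a1* and *Ssr2* among them.

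The 10 transcripts were not at one level. In *Atf6*+/+, *Ssr2* (112 FPKM) was followed by *Ssr3* (61.8 FPKM), *Sec61b* (61.7 FPKM), *Ssr4* (58.8 FPKM), *Sec62* (52.1 FPKM) and *Sec61a1* (49.6 FPKM). Lower down came *Sec61g* (29.0 FPKM), *Ssr1* (25.5 FPKM), *Sec63* (15.6 FPKM) and *Sec61a2* (12.9 FPKM). Neighbours whose *Atf6*+/+ ranges overlapped and whose order also differed between libraries were *Ssr3* and *Sec61b*, *Sec61b* and *Ssr4*, *Sec62* and *Sec61a1*, and *Sec61g* and *Ssr1*. The ranges of *Sec63* and *Sec61a2* overlapped too, although *Sec63* was the higher of the pair within each library. All 11 libraries kept *Ssr2* above *Ssr3*, *Sec61a1* above *Sec61g*, *Ssr1* above *Sec63* and *Sec63* above *Sec61a2*. Among all genes tested, *Ssr2* stood at the 95.8th percentile of *Atf6*+/+ means and *Sec61a2* at the 60.6th.

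Subunits of one complex were unequal in FPKM in both genotypes. Of the 4 TRAP genes, *Ssr2* was 4.40 ± 0.46 times *Ssr1* (SD, n = 5) in *Atf6*+/+ and 4.68 ± 0.14 times (SD, n = 6) in *Atf6*-/-. *Ssr3* was 2.42 ± 0.18 and 2.45 ± 0.18 times *Ssr1*, and *Ssr4* was 2.31 ± 0.18 and 2.20 ± 0.22 times. These TRAP proportions overlapped between genotypes in each case. Within the channel, *Sec61g* over *Sec61a1* was 0.586 ± 0.088 (SD, n = 5) in *Atf6*+/+ and 0.461 ± 0.062 (SD, n = 6) in *Atf6*-/-, while *Sec61b* over *Sec61a1* was 1.25 ± 0.18 and 1.17 ± 0.17. *Sec62* over *Sec63* was 3.35 ± 0.09 (SD, n = 5) and 3.08 ± 0.27 (SD, n = 6), with *Atf6*-/- replicates 5 and 6 lowest at 2.77 and 2.71. These ratios are descriptions, and only that of the α subunits was tested.

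The length of the transcripts moved with these values. *Sec61b* (564 bases), *Sec61g* (754), *Ssr4* (782) and *Ssr2* (840) have median coding-transcript lengths under 1 kb in GENCODE M21, and the gene models of *Sec61g* run from 450 to 1862 bases. By the same median, *Ssr1* falls between 1 and 2 kb, *Sec61a2*, *Ssr3*, *Sec61a1* and *Sec62* between 2 and 4 kb, and *Sec63* at 6032 bases. Gene models run from 569 to 1189 bases for *Ssr2* and from 1610 to 9333 for *Ssr1*. They run from 756 to 2448 for *Sec61a2* and from 1469 to 2957 for *Ssr3*. The length classes of these genes and of *Sec61g* are therefore uncertain. Among all 1353 genes tested with transcripts under 1 kb, the median log2 fold change was -0.09, with 1.55% called higher and 10.6% lower. It was -0.05 in the 3924 genes of 1 to 2 kb, -0.01 in the 6651 of 2 to 4 kb and 0.03 in the 3862 over 4 kb. Genes of short transcripts as a whole were thus listed lower in *Atf6*-/-, and the 4 short members lay above that median of -0.0914, at -0.0877 (*Sec61g*), -0.0421 (*Ssr4*), 0.129 (*Ssr2*) and 0.162 (*Sec61b*).

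Short genes also differed between libraries of one genotype. The median log2 deviation of genes under 1 kb from the *Atf6*+/+ mean was lowest in *Atf6*-/- replicates 5 (-0.24) and 6 (-0.18) and highest in *Atf6*+/+ replicates 5 (0.11) and 4 (0.09). Among the *Atf6*-/- libraries it was highest in replicate 3 (0.07). The short subunits followed this order only in part. All 4 had their highest *Atf6*-/- value in replicate 3, at log2 deviations of 0.44 (*Sec61b*), 0.25 (*Ssr2*), 0.22 (*Ssr4*) and 0.14 (*Sec61g*). In *Atf6*-/- replicate 5, *Sec61g* and *Sec61b* were lowest, at -0.33 and -0.22, and *Ssr4* was at -0.05, but *Ssr2* was at 0.12. In replicate 6, *Ssr4* and *Sec61g* were at -0.26 and -0.23, but *Sec61b* and *Ssr2* were at 0.11 and 0.08. The CV of *Sec61b* was 13.2% in *Atf6*+/+ and 15.3% in *Atf6*-/-, and that of *Sec61g* 14.3% and 11.4%, beside 4.09% and 5.01% for *Sec61a1*. The part of library length bias in the short subunits' values was not tested.

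**Figure D2:**
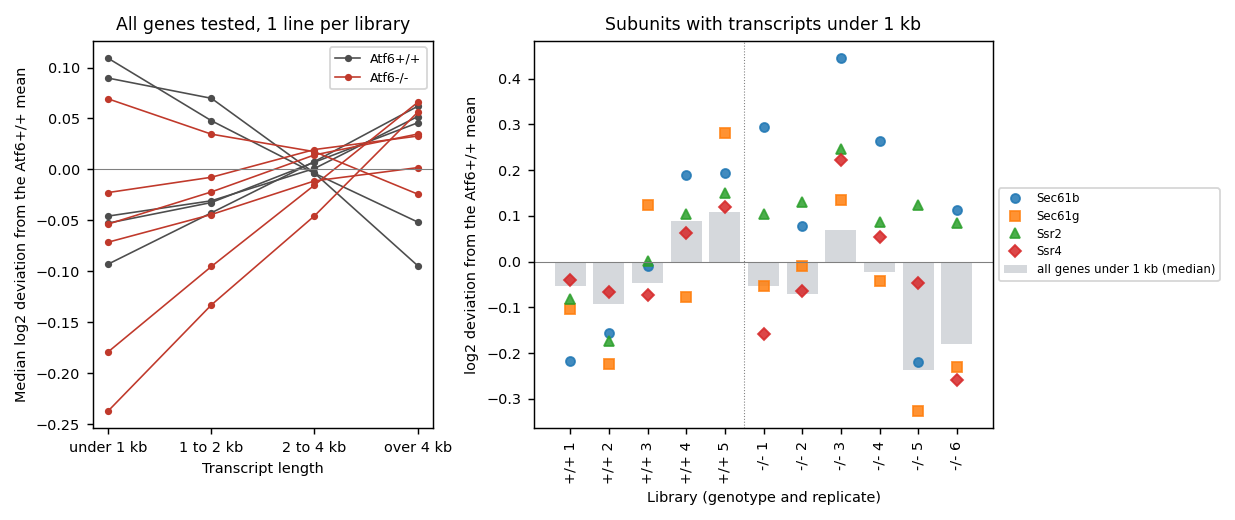
Left, the median log2 deviation of all genes tested from their *Atf6*+/+ mean in 4 classes of transcript length, 1 line per library (grey *Atf6*+/+, red *Atf6*-/-). Right, the same deviation for the 4 subunits with transcripts under 1 kb (points) over the median of all genes under 1 kb (bars) in each library: *Atf6*-/- replicate 3 holds the highest *Atf6*-/- value of each subunit, and the bars are lowest in *Atf6*-/- replicates 5 (-0.24) and 6 (-0.18).

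With a smooth trend on transcript length removed within each library, 3 members were called higher, beside 4.33% of all genes. *Ssr2* was then higher by 0.22 on the log2 scale (95% interval 0.13 to 0.31, limma adjusted p = 0.114, and 0.114 to 0.916 over the alternatives other than leaving out single libraries). *Sec61b* was higher by 0.26 (95% interval 0.11 to 0.41, limma adjusted p = 0.318, and 0.318 to 0.94 over the same alternatives), with a narrower interval than the -0.09 to 0.41 of the values as deposited. *Sec61a1* was at 0.23 (95% interval 0.14 to 0.33, limma adjusted p = 0.114), so its difference was nearly the same with and without the length trend. *Sec61g* moved from -0.09 to 0.01 and *Ssr4* from -0.04 to 0.05, and neither was called. For *Sec61b* and *Ssr2*, then, whether they were called depended on how transcript length and scaling were handled, and for *Sec61a1* it did not.

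**Figure D3:**
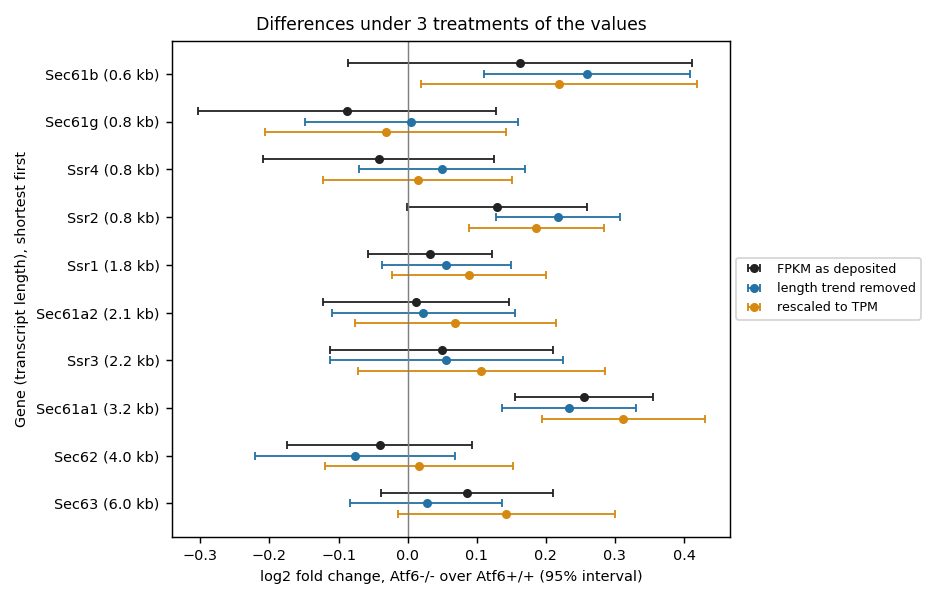
Log2 fold change of *Atf6*-/- over *Atf6*+/+ with its 95% interval for the 10 genes, ordered from the shortest to the longest transcript, from FPKM as deposited (black), with the length trend removed (blue) and rescaled to TPM (orange). *Sec61a1* lies above 0 in all 3 treatments (0.26, 0.23 and 0.31), whereas *Sec61b* (0.16, 0.26 and 0.22) and *Ssr2* (0.13, 0.22 and 0.19) clear 0 in the latter 2.

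The other genes of entry into the ER were counted in 7 lists of 58 genes, all tested. Under the same rule, 8 were called higher and 2 lower, beside 4.48% and 5.37% of all genes, with none at a limma adjusted p under 0.05 and a median log2 fold change of 0.01. Upstream of the channel, the signal recognition particle and its receptor bring ribosomes to the ER membrane. Of these 10 genes, *Srpr*, the receptor's α subunit, and *Srp72* were called higher, by 0.16 and 0.12 on the log2 scale. *Srp9* was called lower, at -0.15. For *Srp72* the groups did not overlap, at 30.2 to 31.8 FPKM in *Atf6*+/+ and 31.9 to 35.2 FPKM in *Atf6*-/-. With the mutants higher, this was so for 0.643% of all genes.

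Signal peptidase removes signal sequences, and the partners of the channel for multipass proteins and the ER membrane complex insert membrane segments. Of the 5 signal peptidase genes, *Spcs2* was called higher (log2 fold change 0.17), beside 4.48% of all genes. *Nomo1* was the gene called higher of 10 multipass partners, at 0.09. In the ER membrane complex, *Emc3*, a core insertase subunit, was called higher, at 0.09. Its groups did not overlap, as for 0.643% of all genes with the mutants higher. *Emc9* was called lower, at -0.29, beside 5.37% of all genes. Neither direction was called among the 8 genes of tail-anchored protein insertion, whose extremes were *Ubl4a* at 0.13 and *Get1* at -0.09.

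On the lumenal side, BiP pulls chains inward and oligosaccharyltransferase adds N-glycans. *Hspa5*, which encodes BiP, ran from 115 to 162 FPKM in *Atf6*+/+ and from 112 to 146 FPKM in *Atf6*-/-, and its log2 fold change was -0.05. Its exchange factor *Hyou1* was called higher at 0.22, at 26.4 to 33.4 FPKM in *Atf6*+/+ and 32.2 to 35.1 FPKM in *Atf6*-/-. Of the 12 oligosaccharyltransferase genes, *Rpn1* and *Magt1* were called higher, beside 4.48% of all genes, and for both the groups did not overlap, beside 0.643% of all genes. *Rpn1*, which averaged 46.3 FPKM (SD 2.17) in controls and 51.9 FPKM (SD 2.07) in mutants, differed by 0.17 on the log2 scale (limma adjusted p = 0.325). *Magt1*, an oxidoreductase subunit, was at 7.17 to 9.99 FPKM in controls and 10.2 to 13.4 FPKM in mutants, a difference of 0.31 on the log2 scale (limma adjusted p = 0.393). The median of the 12 genes was 0.06. Like *Sec61a1*, *Hyou1* and *Rpn1* are among the unfolded protein response genes the study named as altered in these same cochleae. Their directions here are therefore not independent evidence.

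**Figure D4:**
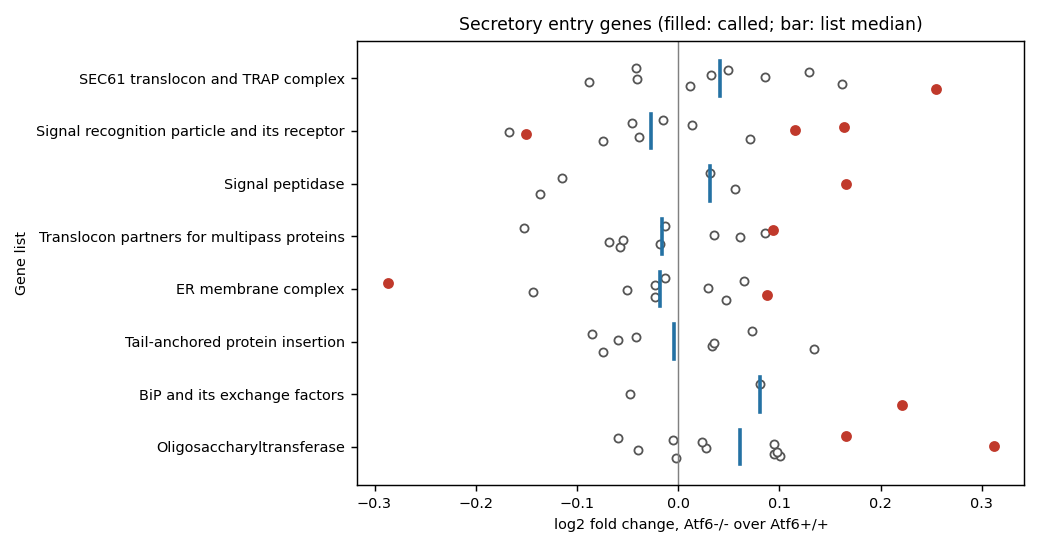
Log2 fold change of *Atf6*-/- over *Atf6*+/+ for each gene (points) of the SEC61 translocon and TRAP complex and of 7 further lists of genes of entry into the ER, with filled red points for genes called by the rule and a blue bar at each list's median. The filled points number 1 in the translocon and TRAP list and 10 in the others, between -0.29 (*Emc9*) and 0.31 (*Magt1*).

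Markers of blood-forming cells moved with genotype beside these values. In whole cochleae, fewer cells of a type and less RNA per cell cannot be told apart. Of the marker genes, 6 of 12 for neutrophils, 8 of 11 for erythroid cells and 4 of 10 for B cells were called lower in *Atf6*-/-, with 0 called higher, beside 5.37% and 4.48% of all genes. Summed FPKM of the neutrophil list was 289 to 3602 in *Atf6*+/+ and 116 to 1359 in *Atf6*-/-, and that of the erythroid list was 4842 to 46411 and 2876 to 9394. The B cell list summed to 32.2 to 57.7 and 30.7 to 40.6 FPKM. Plasma cells, which are rich in translocon, were represented by a list that summed to 3.26 to 6.98 FPKM in *Atf6*+/+ and 2.71 to 3.49 FPKM in *Atf6*-/-, with 2 of 5 tested genes called lower. No gene of these 4 lists was at 0 in every library.

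With a bone marrow score of the neutrophil, B cell and erythroid lists as a covariate, the log2 fold change of *Sec61a1* was 0.22 (95% interval 0.09 to 0.35, limma adjusted p = 0.779). The score itself differed with genotype, at 2.93 to 5.05 in *Atf6*+/+ and 1.5 to 3.34 in *Atf6*-/-. This fit therefore cannot fully separate the score from genotype. *Sec61a1* stayed past the rule, by which 2.06% of all genes were then called higher, and over the alternatives other than leaving out single libraries its limma adjusted p ran from 0.0685 to 0.779. In the 58 further genes, 4 rather than 8 were called higher (*Nomo1*, *Hyou1*, *Magt1* and *Rpn1*), and 3 rather than 2 lower (*Srp9*, *Sec11a* and *Caml*). With this covariate, 2.06% of all genes were called higher and 3.51% lower. No longer called were *Spcs2* (0.16), *Srp72* (0.09) and *Emc9* (-0.24), whose log2 fold changes moved by less than 1.5 times, and *Srpr* (0.10) and *Emc3* (0.05), whose values moved by more. Among lists of cochlear cells, 2 of 8 fibrocyte and otic matrix genes and 2 of 9 hair cell genes were called higher and 0 lower, beside 4.48% and 5.37% of all genes. Their median log2 fold changes were 0.33 and 0.26, with 7 of 8 and 8 of 9 genes above 0 and 1 fibrocyte and otic matrix gene at -0.53. Of the 6 neuron genes 0 were called, with all 6 below 0, a median of -0.06 and the lowest at -1.25. Of the 8 stria vascularis genes 1 was called higher, with all 8 above 0, and of the 10 bone genes 0 were called, with all 10 below 0 and a median of -0.33. The fibrocyte and otic matrix list summed to 3229 to 4997 FPKM in controls and 4394 to 6653 FPKM in mutants, and the hair cell list to 41.4 to 133 and 72.6 to 156 FPKM. The part of these otic cell types in the values of *Sec61a1* was not tested.

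Promoter windows of 250 bases before to 50 bases after the start were at hand for 8 members (RefSeq, GRCm38), not for *Sec61a1* and *Ssr2*. On both strands, the ER stress element, CCAAT and CCACG spaced 9 bases apart, was in 0 of the 8 and in 0.119% of 32851 mouse promoters. The same held for the related element ERSE-II (0.037% of all promoters), the unfolded protein response element core TGACGTGG (0.676%) and the amino acid response core TGATGNAAT (0.965%). The first box of the ER stress element, CCAAT, was in 3 of 8 (*Ssr3*, *Sec63* and *Sec61g*) and in 37.4% of all. Its second box, CCACG, was in 4 of 8 (*Sec61a2*, *Ssr3*, *Sec63* and *Ssr1*) and in 32.8%. These matches describe letters in the windows only.

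Over the 11 libraries, the 5 genes of at least 1 FPKM whose log2 values were most like those of *Sec61a1* were *Dynlt1b* (Pearson r = 0.952), *Rhoj* (0.942), *Klhdc7a* (0.932), *Tmem254a* (0.931) and *Duxbl1* (0.925), of 13610 genes ranked. These r values are descriptions over both genotypes together, and all 5 genes had higher means in *Atf6*-/-, with log2 fold changes between 0.35 (*Klhdc7a*) and 1.79 (*Tmem254a*).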

How the data were processed

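The authors aligned stranded, paired-end mRNA reads of individual cochleae to GRCm39 with HISAT2 2.0.4 and estimated expression with RSEM (1.2.12 in the submitters' processing notes; the study's methods give another version). The deposited values are FPKM with 2 decimals, in 1 table per genotype with 1 column per library, not scaled to a common sum, so read depth is not known from them.

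Tables were joined by NCBI gene identifier. Log2(FPKM + 0.1) was fitted with limma 3.58.1 (R 4.3.3), genotype being the only term and the variance following the mean, and p-values were adjusted (Benjamini-Hochberg) over the 16169 genes averaging 0.1 FPKM or more. Exact two-sided permutation tests took every split of the 11 libraries for single values. All 10 members, *Atf6*, genes called in each of 7 pathway lists (otherwise the largest rise and fall), marker genes of reported cell types and the 5 genes most like *Sec61a1* were named. The members, lists and tests were chosen with earlier results of these data known. Transcript lengths, windows and sequences came from GENCODE M21 and promoters from RefSeq, both GRCm38; lengths matched 15790 of the genes tested, and the length trend was removed with mgcv 1.9.3. The fit was tested on simulated data. The other alternatives were pseudocounts of 1 and 0.01, no filter, a mean of at least 1 FPKM, robust variance, TPM and median-of-ratios scaling, a bone marrow score, a replicate block and leaving out each library. Python 3.11.15 with pandas 2.3.3 and scipy 1.17.1 was used.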

Additional observations from a re-analysis of the deposited data

Results flagged for a closer look

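Of 20 groups (10 genes in 2 genotypes), 3 held a library farther from the others than Dixon's 95% critical value allows, and chance flags about 1 in 20 groups. *Sec62* in *Atf6*+/+ replicate 4 was at 46.23 FPKM, below the next lowest of its group at 52.51 FPKM. *Sec63* in the same library was at 13.28 FPKM, below the next at 15.96 FPKM. *Ssr2* in *Atf6*-/- replicate 3 was at 132.17 FPKM, above the next at 121.94 FPKM. In *Atf6*+/+ replicate 4, genes with transcripts over 4 kb, the class of *Sec63*, were lowest as a whole, at a median log2 deviation of -0.09, whereas those of 2 to 4 kb, the class of *Sec62*, were at -0.00364. In *Atf6*-/- replicate 3, genes under 1 kb, the class of *Ssr2*, were the highest of that genotype, at 0.07.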

How the results depend on the processing

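*Sec61a1* kept its direction and passed the rule in all 21 alternatives, with log2 fold changes of 0.23 to 0.28 with each library left out and 0.22 to 0.31 otherwise, where its limma adjusted p ran from 0.0685 to 0.779. The number of members called higher was 2 without a filter on low values (4.03% of all genes), 2 with median-of-ratios scaling, 3 with TPM, 3 with the length trend removed and 1 to 2 with single libraries left out (3.24% to 5.39% of all genes); 2 did not overlap with TPM (1.16% of all genes). With libraries left out, 0 to 1 members had a limma adjusted p under 0.05. Calls over all genes were 1389 higher and 439 lower with TPM, and 333 higher and 567 lower with the bone marrow score, with 6 genes at a limma adjusted p under 0.05. With single libraries left out they ran from 524 to 872 higher and from 618 to 993 lower, with 8 to 13 genes at that adjusted p. Pathway genes called higher were 13 with TPM and 4 with the bone marrow score, beside 8.59% and 2.06% of all genes. Those called lower were 1 with TPM and 3 with the bone marrow score, beside 2.72% and 3.51% of all genes. The log2 ratio of *Sec61a2* to *Sec61a1* ran from -0.27 to -0.21 with libraries left out (exact two-sided permutation p from 0.00952 to 0.0317).

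Replicate numbers recur in both groups, and deviations of same-numbered libraries correlated at 0.10, -0.12, -0.21, 0.12 and -0.04. These values cannot settle whether the numbers pair cochleae, which the sources used here do not state. A replicate block, which leaves out *Atf6*-/- replicate 6, gave 0.24 for *Sec61a1* (limma adjusted p = 0.51), 0.00111 for *Ssr4*, 422 genes called higher and 4 with a limma adjusted p under 0.05.

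Among the members, the differences that turned were those of uncalled genes: *Sec61g* with the length trend removed (0.00552), *Sec62* with TPM (0.0163) and *Ssr4* with TPM (0.0147) or the length trend removed (0.0497), besides *Ssr4* with the replicate block. With libraries left out, *Sec61a2* ran from -0.0184 to 0.0485, *Ssr3* from -0.012 to 0.0926 and *Ssr4* from -0.0948 to 0.00111. List medians also turned: with TPM those of the signal recognition particle (0.0298), multipass partners (0.0412), ER membrane complex (0.039) and tail-anchored insertion (0.0523), and with the bone marrow score that of signal peptidase (-0.0331). The cause was not tested. Without read counts, the counting error of low or short genes cannot be given.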
